A study of Homo sapiens with 24 samples.

Results

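The 8 genes examined here were the luminal urothelial transcription factors GATA3, PPARG, KLF5, ELF3, GRHL2, GRHL3, TBX3 and TFAP2A. They were chosen by name, as factors linked to luminal urothelium and with earlier results of these data known. They are 8 of the 58721 genes in the count table. Each symbol matched a single gene. RNA levels came from 3′ RNA-seq (QuantSeq FWD, in which cDNA is primed with oligo-dT and each transcript gives reads near its 3′ end) in RT112 and SCaBER, established lines derived from bladder cancers. RT112 is classed as luminal papillary (LumP) and SCaBER as basal/squamous (Ba/Sq). The levels of these factors were compared between the lines, and with and without FOXA1 siRNA. With a single line of each class, the class cannot be told apart from other differences between the lines, the medium included. RT112 was grown in RPMI and SCaBER in DMEM, both with fetal bovine serum, and the siRNAs were delivered by lipofection (Lipofectamine RNAi Max).

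Each line received 6 treatments with 2 libraries each, 24 libraries in all. These were a control siRNA (siControl, number 2 in the labels), siZBED2-1 or siZBED2-2, which target ZBED2, an siRNA to FOXA1 (siFOXA1, number 1 in the labels), and siFOXA1 with either ZBED2 siRNA (double knock-down). A single FOXA1 siRNA was used in every library that received one, so its effect and that of losing FOXA1 cannot be told apart here. The labels do not say whether the 2 libraries of a group came from separate cultures, beyond calling the replicate number an experiment batch, so p-values measure the spread between these libraries, which may be technical.

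GATA3, PPARG, KLF5, ELF3, the Grainyhead-like factors and FOXA1 are expressed in the urothelium, where they form part of a network of transcription factors that bind enhancers of one another and of luminal genes. FOXA1 is a forkhead factor able to bind closed chromatin. PPARG works as a dimer with the retinoid X receptor RXRA and drives the late steps of urothelial differentiation together with lipid genes, while GRHL2 and GRHL3 maintain genes of epithelial junctions. TFAP2A and TBX3 also act in ectodermal tissues, and TFAP2A is a factor of squamous epithelium as well.

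Libraries held between 4425404 and 5207195 counts in RT112 and between 4519668 and 6119210 in SCaBER. Levels are given as CPM, which are counts relative to the library total after TMM scaling within a line, while tests and ratios between the lines used a scaling over all 24 libraries. The detection floor was set at 3 counts, the most that a library without any count leaves possible, and stood at 0.521 to 0.664 CPM in RT112 and 0.48 to 0.68 CPM in SCaBER. The luminal marker list stood at 1742 to 3126 summed CPM in RT112 and 833 to 1356 in SCaBER, where UPK1A, UPK3A and KRT20 had no count, and the basal list at 815 to 1522 and 3640 to 6601. Summed immune and endothelial markers did not exceed 5.71 CPM in any library. Of the fibroblast list (107 to 186 CPM in RT112, 16.8 to 45.1 in SCaBER) COL1A2 had no count in RT112, and LUM, a proteoglycan gene, gave most of the RT112 sum (134 CPM ± 31.7 under siControl, SD, n = 2). FOXA1 stood at 42.2 and 41.3 CPM in the siControl libraries of RT112 and at 6.84 and 9.46 in the siFOXA1 libraries (log2 fold change −2.36, SE 0.38, edgeR adjusted p 5.68e-05). In SCaBER FOXA1 had 20 and 28 counts under siControl and 4 and 6 under siFOXA1 (−2.09, SE 1.23, adjusted p 0.272), so the target was already low before depletion, and 1 SCaBER library without FOXA1 siRNA (siZBED2-1 replicate 2) held 1 count of it. Transcripts of the mitochondrial genome took 18.6 to 22.7% of the counts of the 6 RT112 libraries with FOXA1 siRNA and 8.22 to 17.8% of the 6 without, ranges that did not overlap. In SCaBER the ranges were 9.29 to 12.9% and 9.55 to 12%. Of the fibroblast genes, COL1A1 was higher with FOXA1 siRNA in both lines (mean log2 fold change 2.16 in RT112 and 1.06 in SCaBER) and LUM was lower in RT112 (−0.95). The part of these differences in the results below was not tested.

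The sequences just upstream of the start sites are shown for KLF5, GATA3 and PPARG, the 3 members that fell together with FOXA1 siRNA in RT112. They are RefSeq sequences on GRCh38.p14, plus strand, and each runs over the 250 bases before an annotated start. The KLF5 windows lie at chr13:73054726-73054975 and chr13:73058755-73059004, the GATA3 window at chr10:8045083-8045332 and the PPARG window at chr3:12301725-12301974. Capitals mark matches to the motifs listed after them.
KLF5 first start: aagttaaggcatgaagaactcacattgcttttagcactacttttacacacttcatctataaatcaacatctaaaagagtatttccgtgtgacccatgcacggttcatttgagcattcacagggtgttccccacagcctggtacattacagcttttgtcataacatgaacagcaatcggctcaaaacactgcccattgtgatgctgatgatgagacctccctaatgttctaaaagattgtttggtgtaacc
KLF5 second start: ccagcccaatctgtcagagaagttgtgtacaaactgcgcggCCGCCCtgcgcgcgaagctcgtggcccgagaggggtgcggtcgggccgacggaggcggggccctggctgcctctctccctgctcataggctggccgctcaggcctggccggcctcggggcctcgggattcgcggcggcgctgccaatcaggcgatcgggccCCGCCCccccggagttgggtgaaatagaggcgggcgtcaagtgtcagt
GATA3 first start: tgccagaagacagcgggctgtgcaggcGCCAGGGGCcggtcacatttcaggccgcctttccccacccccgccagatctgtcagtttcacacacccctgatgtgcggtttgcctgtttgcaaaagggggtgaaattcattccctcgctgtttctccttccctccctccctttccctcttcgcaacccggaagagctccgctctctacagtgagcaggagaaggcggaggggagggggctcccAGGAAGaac
PPARG later start: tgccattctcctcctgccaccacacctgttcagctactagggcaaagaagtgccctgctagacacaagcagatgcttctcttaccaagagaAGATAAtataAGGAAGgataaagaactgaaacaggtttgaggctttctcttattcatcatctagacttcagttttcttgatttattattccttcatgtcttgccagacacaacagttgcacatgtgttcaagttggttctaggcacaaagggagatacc

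RefSeq gave promoter windows of 300 bases (250 before and 50 after a start) for 6 of the 8 members, 19 windows in all. Both strands were searched for a forkhead motif (TGTTTAC or TATTTAC), which none of the 19 windows held, while 5.97% of all 35116 promoters did. The GATA motif AGATAA was found in 2 windows, of PPARG and GRHL3 (10.3% of all promoters). The AP-2 motif GCCNNNGGC was found in 4 windows of GATA3 and GRHL3 (23.2%), the ETS motif AGGAAG in 8 windows of GATA3, PPARG, GRHL3 and TFAP2A (33.6%), and the GC box GGGCGG in 6 windows of GATA3, GRHL3 and KLF5 (45%). Motifs of Grainyhead (AACCNGGTT, 0.239% of all promoters), T-box (AGGTGTGA, 0.98%), KLF (CCACACCC, 3.28%) and PPAR (a direct repeat, 0.0228%) were in none. In the sequences shown, the PPARG window held AGATAA 159 bases before the start with an ETS match 149 bases before it, the second KLF5 window held a pair of GC boxes, and the first KLF5 window held no match. A match is only a run of letters, and its absence says only that these letters are not in these windows.

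The level of each member under the control siRNA was first compared between the lines, in a single fit of all 24 libraries. Of the 7 members tested, 6 differed between RT112 and SCaBER under siControl (adjusted p under 0.05 in edgeR's quasi-likelihood test), against 33.6% of all 14823 genes. Of these, 5 were higher in RT112 (16.4% of all genes) and 1, TFAP2A, was higher in SCaBER (17.2% of all genes). In bulk RNA fewer cells that express a gene and less RNA of it per cell cannot be told apart.

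GATA3, a zinc finger factor of the luminal lineage (ENSG00000107485; chromosome 10, 8045333 to 8075198 on GRCh38.p14), had the widest gap of the 7. It stood at 492 and 518 CPM in RT112 and at 12.8 and 11.6 CPM in SCaBER, a log2 difference of 5.38 (SE 0.19, adjusted p 3.37e-21), or 41.7-fold. SCaBER GATA3 rested on 68 and 58 counts, well over the floor of 3 counts.

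PPARG (ENSG00000132170; chromosome 3, 12287368 to 12434344) was at 93.2 and 104 CPM in RT112 and 29.7 and 27.7 in SCaBER, a log2 difference of 1.79 (SE 0.27, adjusted p 1.92e-06). ELF3, an ETS factor of epithelia (ENSG00000163435; chromosome 1, 202010587 to 202017183), was at 252 and 268 CPM against 79.9 and 102, a difference of 1.53 (SE 0.18, adjusted p 1.95e-08). KLF5, a Krüppel-like factor active in epithelial growth (ENSG00000102554; chromosome 13, 73054976 to 73077538), was at 357 and 354 CPM against 141 and 136, a difference of 1.37 (SE 0.15, adjusted p 3.39e-09). Both RT112 libraries lay above both SCaBER libraries for each of these genes, and the share of all genes that did so was not counted. TBX3, a T-box repressor (ENSG00000135111; chromosome 12, 114670255 to 114684175), was at 64.8 and 89.2 CPM against 41.2 and 32.9 (1.07, SE 0.27, adjusted p 0.00219). Its call was lost without RT112 siControl replicate 2 (0.81, adjusted p 0.0616) and with limma on TPM values (0.78, adjusted p 0.0767).

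TFAP2A, which encodes AP-2 alpha (ENSG00000137203; chromosome 6, 10396677 to 10419659), went the other way. It was at 47 and 48.1 CPM in RT112 and 130.1 and 131 in SCaBER, a log2 difference of −1.44 (SE 0.19, adjusted p 3.24e-07), or 2.71-fold higher in SCaBER. GRHL2 (ENSG00000083307; chromosome 8, 101492439 to 101681200) was the member with the smallest gap, at 78.2 and 61.5 CPM in RT112 and 56.5 and 49.5 in SCaBER (0.41, 95% interval −0.04 to 0.86, adjusted p 0.154), which did not pass. GRHL3 (ENSG00000158055; chromosome 1, 24319357 to 24364482) was not tested, since it held 0 to 14 counts in RT112 and 0 to 10 in SCaBER. It exceeded the floor of 3 counts in 8 of 12 RT112 libraries and 4 of 12 SCaBER libraries, so neither a difference between the lines nor one between treatments was detectable at this depth.

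The order between the lines held across treatments. GATA3 was 26.9-fold to 86-fold higher in RT112 over the 6 treatments, with the lowest ratio under siFOXA1 and the highest under siZBED2-1. KLF5 was 2.15-fold to 2.84-fold higher in RT112, a narrow range, and PPARG 2.78-fold to 4.88-fold. ELF3 ran from 2.89-fold under siControl to 5.3-fold under siFOXA1, and TFAP2A was 2.14-fold to 3.2-fold higher in SCaBER. These ratios compare group means of 2 libraries each and were not tested between treatments other than as given below.

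**Figure D1:**
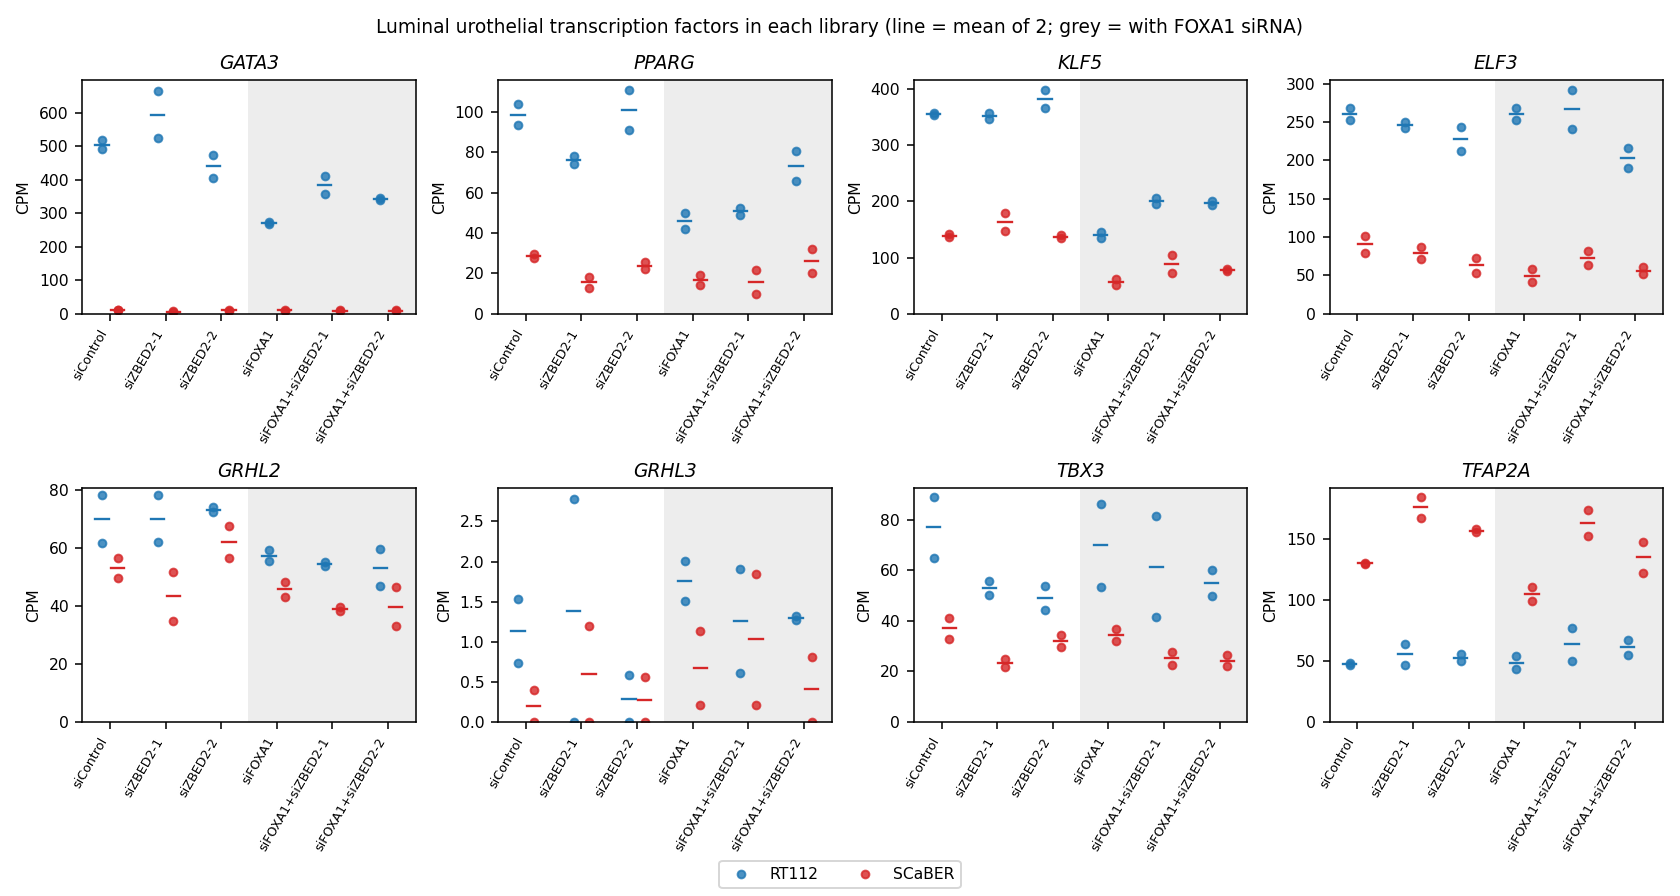
Levels of the 8 luminal urothelial transcription factors in CPM (y axis, linear from 0) in each of the 24 libraries, by siRNA treatment (x axis), RT112 in blue and SCaBER in red, with a bar at the mean of 2 libraries and the treatments with FOXA1 siRNA shaded grey. KLF5 was lower in every shaded library than in every unshaded one of its line, GATA3 stayed under 12.9 CPM throughout SCaBER, and TFAP2A was higher in SCaBER.

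The question put to RT112 was whether depletion of FOXA1 moves the other luminal factors. With siFOXA1 alone, 3 of the 7 tested members were called against siControl, KLF5, PPARG and GATA3, all lower, while ELF3, TBX3, TFAP2A and GRHL2 did not pass. Over all 13264 genes tested in RT112, 23.3% were called and 11.9% were called lower. Both siFOXA1 libraries lay below both siControl libraries for 4 members, the 3 named and GRHL2, as they did for 31.7% of all genes.

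KLF5 fell the most of the 7. It stood at 357 and 354 CPM under siControl and 145 and 136 under siFOXA1, which is 2.53-fold lower (log2 −1.34, SE 0.13, adjusted p 7.51e-08). PPARG went from 93.2 and 104 CPM to 49.9 and 42.1, a change of −1.10 (SE 0.20, adjusted p 0.000171), or 2.14-fold lower. GATA3 went from 492 and 518 CPM to 269.6 and 276, a change of −0.89 (SE 0.14, adjusted p 3.03e-05), or 1.85-fold lower. The 3 genes kept their calls when any single RT112 library was left out and under all 7 other settings.

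ELF3 did not pass with siFOXA1 in RT112, at 252 and 268 CPM under siControl and 269 and 253 under siFOXA1. Its log2 fold change was 0.00 with a 95% interval from −0.29 to 0.29, which does not reach the size of the KLF5 or GATA3 change. TFAP2A was at 43.3 and 54.2 CPM under siFOXA1 (0.03, interval −0.46 to 0.53), on either side of its siControl values. TBX3 was at 53.5 and 86.4 CPM (−0.14, interval −0.69 to 0.41) against 64.8 and 89.2 under siControl, so its ranges overlapped. GRHL2 was at 59.1 and 55.2 CPM (−0.29, interval −0.72 to 0.14).

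The same siRNA was also given on top of each ZBED2 siRNA, which gives comparisons with their own controls that share no library with siFOXA1 against siControl. On siZBED2-1, 2 of the 7 members were called in RT112, both lower (10.3% of all genes called, 5.41% lower). KLF5 went from 346 and 357 CPM to 207 and 196 (−0.81, SE 0.13, adjusted p 0.000196), and GATA3 from 525 and 665 to 358 and 410.4 (−0.63, SE 0.14, adjusted p 0.00327). PPARG went from 78.1 and 74.1 CPM to 49.1 and 52.4 (−0.59, SE 0.20, adjusted p 0.0558), short of the threshold, and passed with the replicate number as a block (−0.59, adjusted p 0.0375), in DESeq2 (−0.59, adjusted p 0.0438), with scaling to library size (−0.68, adjusted p 0.0371) and without siFOXA1 replicate 1 or 2 (−0.59 in both, adjusted p 0.0481 and 0.0478). The GATA3 call was lost without siZBED2-1 replicate 2 (−0.44, adjusted p 0.123), the library with its highest level, and on TPM values (−0.82, adjusted p 0.0827).

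On siZBED2-2, 1 member was called in RT112, KLF5 (8.78% of all genes called, 4.34% lower). It went from 398 and 366 CPM to 193 and 201 (−0.95, SE 0.13, adjusted p 3.17e-05). GATA3 (406 and 475 CPM against 341 and 347, −0.36, SE 0.14, adjusted p 0.107), PPARG (90.7 and 110.5 against 65.8 and 80.5, −0.46, SE 0.19, adjusted p 0.144) and GRHL2 (72.2 and 74 against 59.4 and 46.8, −0.46, SE 0.21, adjusted p 0.189) did not pass. Both double knock-down libraries lay below both siZBED2-2 libraries for each of these 3 genes. The share of all genes that did so on this background was not counted. FOXA1 itself was at 15.6 and 9.91 CPM in the double knock-down, 3.13-fold lower than with siZBED2-2 alone. It was 5.12-fold lower with siFOXA1 against siControl and 6.62-fold lower on siZBED2-1. The part of this in the smaller changes was not tested.

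Averaged over the 3 backgrounds, which sets 6 libraries with FOXA1 siRNA against 6 without, 4 of the 7 members were called in RT112, all lower (33.8% of all genes called, 17% lower). KLF5 was 346 to 398 CPM (median 357) without FOXA1 siRNA and 136 to 207 (median 195) with it, a mean log2 fold change of −1.03 (SE 0.08, adjusted p 1.14e-10). GRHL2 was 61.5 to 78.2 CPM (median 73.1) without and 46.8 to 59.4 (median 55.2) with it (−0.37, SE 0.12, adjusted p 0.0191). These 2 members did not overlap between the 6 and 6 libraries, as was so in the lower direction for 5.68% of all genes.

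PPARG was 74.1 to 110.5 CPM (median 91.9) without FOXA1 siRNA and 42.1 to 80.5 (median 51.1) with it, a mean change of −0.71 (SE 0.11, adjusted p 1.64e-05). GATA3 was 406 to 665 CPM (median 505) without and 269.6 to 410.4 (median 344) with it (−0.63, SE 0.08, adjusted p 7.15e-07). For each gene a single library with FOXA1 siRNA, from a double knock-down, reached into the range of the libraries without it. Within a replicate number and background, GATA3, PPARG, KLF5 and GRHL2 were each lower with FOXA1 siRNA in 6 of 6 pairs. The share of all genes lower in every pair was not counted, so pair counts, here and below, are a description only. KLF5 kept 38.3 to 59.7% of its paired level, PPARG 40.6 to 72.9%, GATA3 53.2 to 84%, and GRHL2 63.2 to 89.9%.

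The GRHL2 call was the least settled of the 4. It was lost without siControl replicate 1 (−0.31, adjusted p 0.0901), without siZBED2-1 replicate 1 (−0.31, adjusted p 0.0853) and without the replicate 2 library of siFOXA1 with siZBED2-2 (−0.32, adjusted p 0.0778). ELF3 (−0.02, 95% interval −0.19 to 0.15), TBX3 (0.08, interval −0.24 to 0.40) and TFAP2A (0.15, interval −0.14 to 0.43) did not pass in RT112. GATA3 and TBX3 were higher in replicate 2 than in replicate 1 in 6 of 6 RT112 groups, while KLF5 was in 2 of 6.

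**Figure D2:**
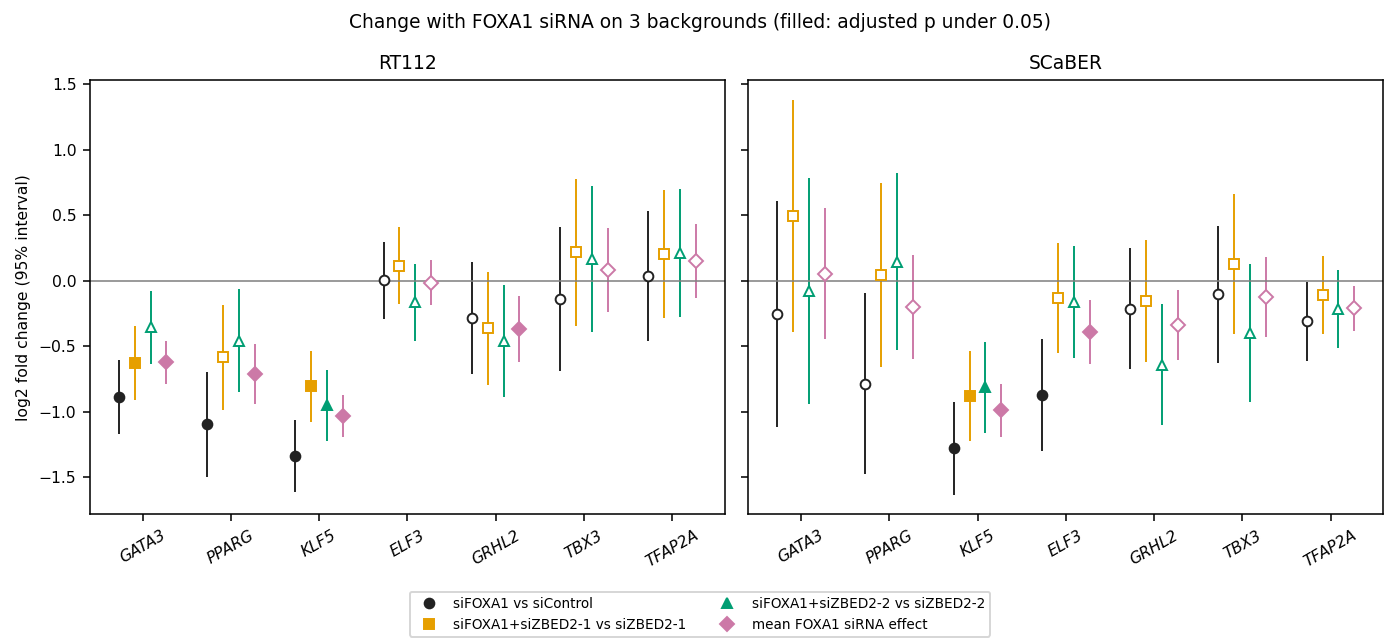
Log2 fold change with FOXA1 siRNA (y axis, with 95% intervals) for the 7 tested members (x axis) against siControl, on siZBED2-1, on siZBED2-2 and as the mean of these 3, in RT112 (left) and SCaBER (right), with filled symbols for an adjusted p under 0.05. KLF5 was called on every background in both lines, the means of GATA3, PPARG and GRHL2 were filled in RT112 and that of ELF3 in SCaBER, and of these 4 genes the difference between the lines passed its own test for GATA3.

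In SCaBER, where FOXA1 was near the floor with the siRNA and low without it, siFOXA1 alone left 2 of the 7 members called, KLF5 and ELF3, both lower (17.8% of all 13129 genes called, 9.12% lower). Both siFOXA1 libraries lay below both siControl libraries for 5 members, KLF5, ELF3, PPARG, GRHL2 and TFAP2A, as they did for 28.3% of all genes. KLF5 went from 141 and 136 CPM to 62.6 and 51.5, which is 2.43-fold lower (log2 −1.28, SE 0.17, adjusted p 1.2e-06). ELF3 went from 79.9 and 102 CPM to 58.1 and 40.8 (−0.87, SE 0.21, adjusted p 0.00272). The ELF3 call was lost without siControl replicate 2 (−0.69, adjusted p 0.0589) and without siFOXA1 replicate 2 (−0.64, adjusted p 0.0745).

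PPARG went from 29.7 and 27.7 CPM to 14.3 and 19.1 in SCaBER (−0.79, 95% interval −1.48 to −0.10, adjusted p 0.112), and TFAP2A from 130.1 and 131 to 99.5 and 111 (−0.31, interval −0.61 to −0.01, adjusted p 0.159). Neither passed after adjustment over all genes. GATA3, at 12.8 and 11.6 CPM under siControl and 11.8 and 8.62 under siFOXA1, had an interval from −1.12 to 0.61 that also holds the RT112 value, so a change of that size was not detectable in SCaBER from this pair of groups alone.

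On siZBED2-1 in SCaBER, KLF5 was the only member called (5.78% of all genes called, 2.73% lower). It went from 148 and 179 CPM to 73.3 and 104 (−0.88, SE 0.17, adjusted p 0.000908), and lost the call without replicate 1 of the double knock-down (−0.66, adjusted p 0.0852). On siZBED2-2 it was again the only member called (3.03% of all genes called, 1.38% lower), going from 139 and 135 CPM to 80 and 75.8 (−0.81, SE 0.17, adjusted p 0.00353), and did not pass on TPM values (−0.81, adjusted p 0.0736). PPARG, by contrast, was 21.7 and 9.97 CPM with both siRNAs against 18.4 and 12.7 with siZBED2-1, and 20.4 and 32.3 against 25.7 and 21.9 with siZBED2-2. In both settings its libraries overlapped.

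Averaged over the 3 backgrounds, 2 of the 7 members were called in SCaBER, both lower (24.1% of all genes called, 12% lower). KLF5 was 135 to 179 CPM (median 140.3) without FOXA1 siRNA and 51.5 to 104 (median 74.6) with it (−0.99, SE 0.10, adjusted p 1.68e-09). It was the only member without overlap between the 6 and 6 SCaBER libraries, as was so in the lower direction for 3.37% of all genes, and it kept 37.9 to 58.4% of its paired level. ELF3 was 53.2 to 102 CPM (median 76.4) without and 40.8 to 81.6 (median 59.6) with FOXA1 siRNA (−0.39, SE 0.12, adjusted p 0.0155), lower in 6 of 6 pairs.

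The ELF3 mean in SCaBER was close to the threshold. Its adjusted p was 0.0505 to 0.0708 when any of 5 libraries was left out, namely replicate 2 of siControl, siZBED2-1, siZBED2-2 or siFOXA1, or replicate 1 of siFOXA1 with siZBED2-1, with log2 fold changes from −0.34 to −0.32. On TPM values it was 0.0565 (−0.44), while TFAP2A passed there (−0.28, adjusted p 0.038). GRHL2 (−0.34, SE 0.13, adjusted p 0.0582) and TFAP2A (−0.21, SE 0.08, adjusted p 0.0661) missed the threshold and passed it with the replicate number as a block, at adjusted p 0.0462 and 0.042 with the same −0.34 and −0.21. TFAP2A was lower with FOXA1 siRNA in 6 of 6 SCaBER pairs and GRHL2 in 5 of 6, without a share over all genes. PPARG (−0.20, interval −0.60 to 0.20), TBX3 (−0.13, interval −0.43 to 0.18) and GATA3 (0.05, interval −0.45 to 0.56) did not pass.

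Whether the lines responded differently was tested as the difference between the mean FOXA1 siRNA effects, RT112 minus SCaBER. GATA3 was the only member called (8.11% of all 14823 genes called, 4.18% lower), with a log2 difference of −0.68 (SE 0.16, adjusted p 0.00412). As a mean over the 3 backgrounds GATA3 thus fell more in RT112, and this call held under all 6 other settings and with any of the 24 libraries left out. In SCaBER its change was −0.25 against siControl, 0.49 on siZBED2-1 and −0.08 on siZBED2-2, none of which passed. Under siZBED2-1 alone it held only 34 and 38 counts there (6.8 and 6.97 CPM). The difference between the lines was not tested on each background. KLF5 differed by −0.04 with an interval from −0.29 to 0.21, which bounds how far the KLF5 response differed between the lines. FOXA1 itself averaged 41.7 CPM under siControl in RT112 and 4.68 in SCaBER. GRHL2 differed by −0.03 (interval −0.40 to 0.34).

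PPARG differed by −0.51 (SE 0.22, adjusted p 0.164), ELF3 by 0.38 (SE 0.15, adjusted p 0.115) and TFAP2A by 0.36 (SE 0.16, adjusted p 0.163), none of which passed. The PPARG difference passed without replicate 2 of siFOXA1 with siZBED2-1 in SCaBER (−0.66, adjusted p 0.0456), the library in which PPARG had 47 counts. The ELF3 difference passed without SCaBER siFOXA1 replicate 1 (0.47, adjusted p 0.0369). For these 3 genes a call in a single line is therefore not shown to be particular to it.

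**Figure D3:**
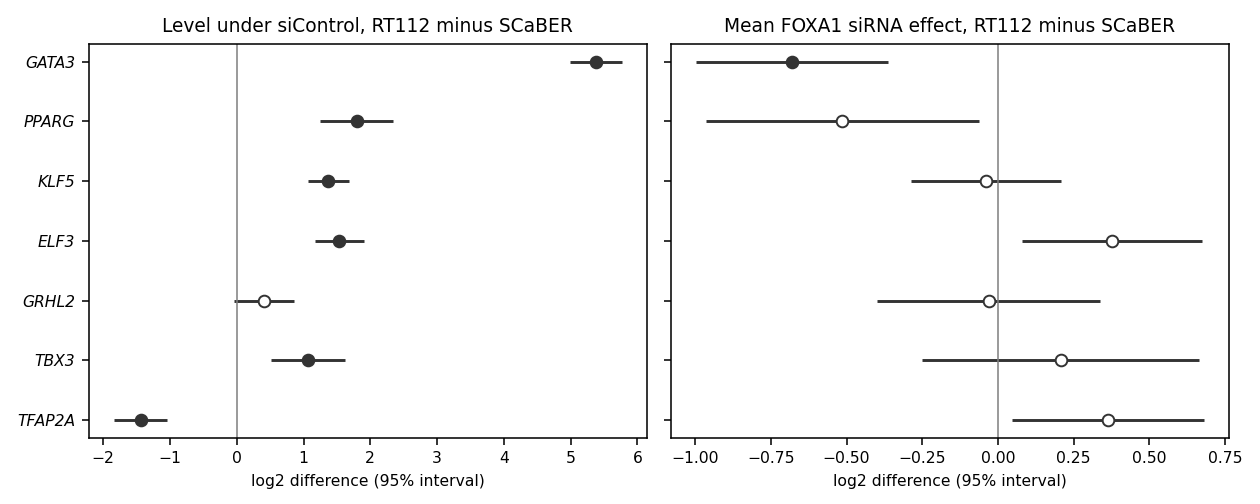
Log2 difference RT112 minus SCaBER with 95% intervals (x axes) for the 7 tested members (y axis), in level under siControl (left) and in the mean FOXA1 siRNA effect (right), with filled symbols for an adjusted p under 0.05. GATA3 stood far to the right in level (5.38) and to the left in effect (−0.68), while KLF5 differed in level (1.37) and sat at −0.04 in effect.

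Each ZBED2 siRNA alone was compared with siControl, which the siFOXA1 comparison shares. ZBED2 itself was called lower with siZBED2-1 in RT112 (−3.97, edgeR adjusted p 0.00624) and SCaBER (−1.96, adjusted p 0.00848). With siZBED2-2 it was not called (−1.52, adjusted p 0.903, and −0.61, adjusted p 0.844), though its libraries lay below those of siControl in both lines. The siZBED2-2 comparisons therefore do not show what loss of ZBED2 does. No member was called in RT112 with siZBED2-1 (8.8% of all genes called) or siZBED2-2 (0.166%), nor in SCaBER with siZBED2-1 (4.65%) or siZBED2-2 (0.625%), in edgeR. At an unadjusted p under 0.05 the counts were 0, 1 (TBX3), 3 (PPARG, TBX3 and TFAP2A) and 1 (ELF3) of 7, in that order. The share of all genes at an unadjusted p was not counted, so these counts cannot be read against it. DESeq2 called 0, 0, 1 and 0 members, and 1308, 70, 749 and 118 of all genes tested. The library labelled SCaBER siZBED2-2 replicate 2 held 16 CPM of ZBED2 beside 19.1 and 19.2 under siControl, so its target was hardly reduced.

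The member DESeq2 called was TFAP2A in SCaBER with siZBED2-1. It was at 185 and 168 CPM against 130.1 and 131 under siControl, a log2 fold change of 0.43 (SE 0.15) with an adjusted p of 0.0916 in edgeR, 0.0385 in DESeq2 (0.44) and 0.0497 with the replicate number as a block (0.43). TBX3 was at 21.6 and 24.8 CPM with siZBED2-1 in SCaBER against 41.2 and 32.9 (−0.68, SE 0.26, adjusted p 0.152), and at 44.4 and 53.7 with siZBED2-2 in RT112 against 64.8 and 89.2 (−0.65, SE 0.27, adjusted p 0.758). KLF5 stayed at 346 to 398 CPM in the 4 RT112 libraries with a ZBED2 siRNA alone, beside 357 and 354 under siControl.

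The double knock-downs were then set against siFOXA1 alone. In RT112 ZBED2 was already 5.57-fold lower under siFOXA1 alone than under siControl (adjusted p 0.0325), and it averaged 1.7 CPM in the double knock-downs against 3.47 under siFOXA1 (adjusted p 0.573), so a further loss of ZBED2 in this comparison was not shown. In SCaBER ZBED2 averaged 6.8 CPM against 19.7 (log2 −1.85, SE 0.38, adjusted p 0.00256). FOXA1 averaged 10.2 CPM in the RT112 double knock-downs against 8.15 under siFOXA1 (log2 0.28, SE 0.35, edgeR adjusted p 0.773), and its part in this comparison was not tested. In RT112 the mean of both double knock-downs left KLF5 called higher, the only member (1.96% of all genes called, 1.32% higher). It was at 193 to 207 CPM in the 4 double knock-down libraries and 145 and 136 in the siFOXA1 libraries, without overlap (0.51, SE 0.12, adjusted p 0.0231). The call was lost without siFOXA1 replicate 1 (0.55, adjusted p 0.0549), without siFOXA1 replicate 2 (0.45, adjusted p 0.341), without replicate 2 of siFOXA1 with siZBED2-2 (0.49, adjusted p 0.0526), and on TPM values (0.57, adjusted p 0.203). GATA3 was at 341 to 410.4 CPM against 269.6 and 276 (0.42, SE 0.12, adjusted p 0.074), also without overlap, and passed with the replicate number as a block (0.41, adjusted p 0.0217) and in DESeq2 (0.41, adjusted p 0.0256). How many of all genes were without overlap here was not counted.

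In SCaBER 2 members were called in this comparison, both higher (3.84% of all genes called, 2.06% higher). KLF5 was at 73.3 to 104 CPM against 62.6 and 51.5 (0.54, SE 0.16, adjusted p 0.0414), and TFAP2A at 123 to 174 against 99.5 and 111 (0.50, SE 0.13, adjusted p 0.0219). Neither overlapped. KLF5 lost the call without siFOXA1 replicate 2 (0.41, adjusted p 0.456), and without replicate 2 of siFOXA1 with siZBED2-1 (0.40, adjusted p 0.237) or replicate 1 of siFOXA1 with siZBED2-2 (0.53, adjusted p 0.065). TFAP2A lost it without either siFOXA1 library (0.42 and 0.58, adjusted p 0.184 and 0.0726) and without replicate 1 of either double knock-down (0.45 and 0.43, adjusted p 0.0784 and 0.0926). On TPM values neither passed, at 0.59 and 0.54 (adjusted p 0.0853 and 0.0575).

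The interaction asks whether the FOXA1 siRNA effect itself was smaller in the presence of a ZBED2 siRNA. No member was called in edgeR or in DESeq2, in RT112 (0.611% of all genes called) or in SCaBER (2.29%). At an unadjusted p under 0.05 there were 3 of 7 in each line, GATA3, PPARG and KLF5 in RT112 and PPARG, ELF3 and KLF5 in SCaBER. The share of all genes at an unadjusted p was not counted, so 3 of 7 cannot be read against it. KLF5 had an interaction of 0.46 (SE 0.16, adjusted p 0.22) in RT112 and 0.43 (SE 0.21, adjusted p 0.374) in SCaBER, and PPARG of 0.58 (SE 0.24, adjusted p 0.313) and 0.88 (SE 0.41, adjusted p 0.355). ELF3 in SCaBER had 0.72 (SE 0.26, adjusted p 0.149) and passed without siFOXA1 replicate 1 (0.99, adjusted p 0.0386). The amount of each siRNA in the double knock-downs was not used here, and its part was not tested.

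The genes whose pattern was most like that of each member were found by Pearson's r over the 24 libraries, on log2 CPM with the mean of each line removed. The points share their siRNA groups and libraries, so r is given as a description. KLF5 was most like PPDPF (r = 0.979), a gene of pancreatic progenitor differentiation, and NPM1 (0.963), which encodes the nucleolar protein nucleophosmin. PPDPF had a mean FOXA1 siRNA effect of −2.81 in RT112 and −2.53 in SCaBER, and NPM1 of −0.89 and −1.11, so like KLF5 they fell in both lines.

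GATA3 was most like AL022718.1 (0.825) and PABPC1 (0.814), a poly(A)-binding protein gene with mean effects of −0.41 in RT112 and −0.01 in SCaBER. PPARG was most like C1orf112 (0.848) and ARL6IP1 (0.834), at −0.80 and −0.99 in RT112. The values were lower for the members that moved less, ELF3 (MGMT 0.778, MAOB 0.767), GRHL2 (ZNF629 0.786, FAAP24 0.747), TFAP2A (GABPB2 0.703, PSAT1 0.683) and TBX3 (SEMA4C 0.673, SLC22A17 0.652). Between the members themselves over the 12 libraries of RT112, KLF5 had r = 0.867 with GATA3 and 0.862 with PPARG, and over the 12 of SCaBER −0.165 and 0.0146, where its highest value was with ELF3 (0.723).

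The other genes of the luminal programme were read from 6 lists in the mean FOXA1 siRNA effect. Genes past the 2 with the largest change in each direction were named after their values were seen. The fibroblast and mitochondrial values given above move with the same libraries. Of 10 other luminal network factors tested in RT112, 5 were called lower (17% of all genes were) and 0 higher (16.7%), with a median of −0.31 beside −0.01 over all genes. FOXA1, the siRNA target, is 1 of these 5. These were FOXA1 (−2.24), FOXQ1 (−1.79, a forkhead factor), HES1 (−0.91, a Notch target), NPAS2 (−0.59) and RXRA (−0.26), the partner of PPARG. In SCaBER 5 of 9 were lower (12% of all genes were) and 0 higher (12.1%), FOXA1 (−2.85), FOXQ1 (−1.38), HES1 (−0.54), RARG (−0.43) and RXRA (−0.33), with a median of −0.45. FOXA1 is the siRNA target, and it overlapped between the 6 and 6 libraries in SCaBER.

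Family relatives of the members moved in both directions. In RT112 6 of 12 were called higher (16.7% of all genes were) and 3 lower (17%), with a median of 0.15. The higher ones were led by KLF4 (1.59, SE 0.38), a Krüppel-like factor, and TFAP2C (0.59, SE 0.11), which encodes AP-2 gamma, and the lower ones were PPARA (−0.62), the ETS factor EHF (−0.56) and KLF3 (−0.46). GRHL1 (0.45, SE 0.13) and GATA2 (0.33, SE 0.12) were higher while GRHL2 and GATA3 were lower. In SCaBER 2 of 11 were higher (12.1% of all genes were), ELF1 (0.79) and KLF4 (0.45), and 3 lower (12%), EHF (−1.27), GATA6 (−0.86) and KLF6 (−0.24), with a median of 0.12.

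Of the PPARG target genes 6 of 10 were tested in each line. Averaged over the 3 backgrounds in RT112, FABP4, the adipocyte fatty acid binding protein, fell by a log2 of 1.96 (SE 0.10, edgeR adjusted p 8.18e-14). The fatty acid transporter CD36 fell by 1.83 (SE 0.70, adjusted p 0.047). With siFOXA1 alone, FABP4 stood at 156 CPM ± 55, against 992 ± 93.3 under siControl (SD, n = 2). FABP4 was also called lower with siZBED2-1 alone and higher in the interaction, so its fall was smaller with a ZBED2 siRNA. CPT1A (0.72) and ACADVL (0.69), genes of fatty acid oxidation, were higher. The median was 0.17. In SCaBER, where FABP4 and CD36 had no count under siControl, ANGPTL4 (1.59) and ACADVL (0.32) were higher and HILPDA (−1.10) and CPT1A (−0.25) lower, with a median of 0.33.

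Of the 10 Grainyhead-like target genes, all tested in RT112, 6 were called higher (16.7% of all genes were) and 2 lower (17%), with a median of 0.56. PRSS8 (1.30, SE 0.10), a membrane serine protease, and CLDN4 (1.02, SE 0.08), a tight junction claudin, rose most, and the splicing factors ESRP2 (−0.70) and ESRP1 (−0.33) were lower, as was GRHL2. In SCaBER 4 of 9 were higher (12.1% of all genes were), PRSS8 (1.11), CLDN4 (0.59), ST14 (0.37) and SPINT1 (0.35), and 1 lower (12%), ESRP2 (−0.53), with a median of 0.26.

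Of the luminal differentiation markers, 5 of 8 were called lower in RT112 (17% of all genes were) and 1 higher (16.7%), with a median of −0.30. UPK1A (−1.20, SE 0.27) and UPK1B (−0.57, SE 0.07), which encode uroplakins of the urothelial surface, fell most, with KRT7 (−0.49), KRT18 (−0.39) and KRT19 (−0.20), and ERBB2 (0.38) was higher. In SCaBER 2 of 6 were lower (12% of all genes were), KRT7 (−0.76) and KRT18 (−0.56), and 0 higher (12.1%), with a median of −0.34. Of the basal network factors, 3 of 6 were lower in RT112 (17% of all genes were), TP63 (−1.62), ZBED2 (−1.33) and NR3C1 (−0.47), with a median of −0.41. ZBED2 is itself an siRNA target in part of these libraries, and its mean only just passed (edgeR adjusted p 0.0493), with overlapping libraries. Its change was −2.48 against siControl (adjusted p 0.0325), 0.44 on siZBED2-1 (adjusted p 0.847) and −1.96 on siZBED2-2 (adjusted p 0.183). In SCaBER 1 of 7 was called higher and 1 lower, near the shares over all genes (12.1% and 12%), with a median of −0.22. The lower one was HMGA2 (−1.13). The higher one was BNC2, which had 0 and 4 counts under siControl and 27 and 37 under siFOXA1. Its level without FOXA1 siRNA averaged 0.5 CPM, at the floor, so no fold is given and its call rests on the libraries with FOXA1 siRNA in which it was high.

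The balance of higher and lower calls over all genes depended on the scaling. With siFOXA1 in RT112, 48.6% of the called genes were higher in the edgeR fit, 38.6% with scaling to library size alone and 18.3% with limma on TPM values. For the mean effect the shares were 49.5%, 37.9% and 18% in RT112, and 50.2% and 35.7% (edgeR and TPM) in SCaBER. On siZBED2-1 and siZBED2-2 in RT112 they were 47.5% and 50.6% in edgeR, 32.9% and 33.3% with library size alone, and 16.7% and 14.3% on TPM values. The median of all genes for siFOXA1 in RT112 moved to −0.11 and −0.26 on those scales, and KLF5, PPARG and GATA3 were at −1.63, −1.36 and −1.19 on TPM values, all further from 0 than that median. Of the line comparisons, 48.9% of the calls under siControl and 48.5% of those in the difference of effects were on the RT112 side in edgeR, and 34.3% and 20.1% on TPM values. The members called kept their direction under every scaling tried. The 6 lists were fitted with the edgeR scaling only, so a direction among their smaller values, such as ERBB2 or KRT19, was not tested against another scaling.

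**Figure D4:**
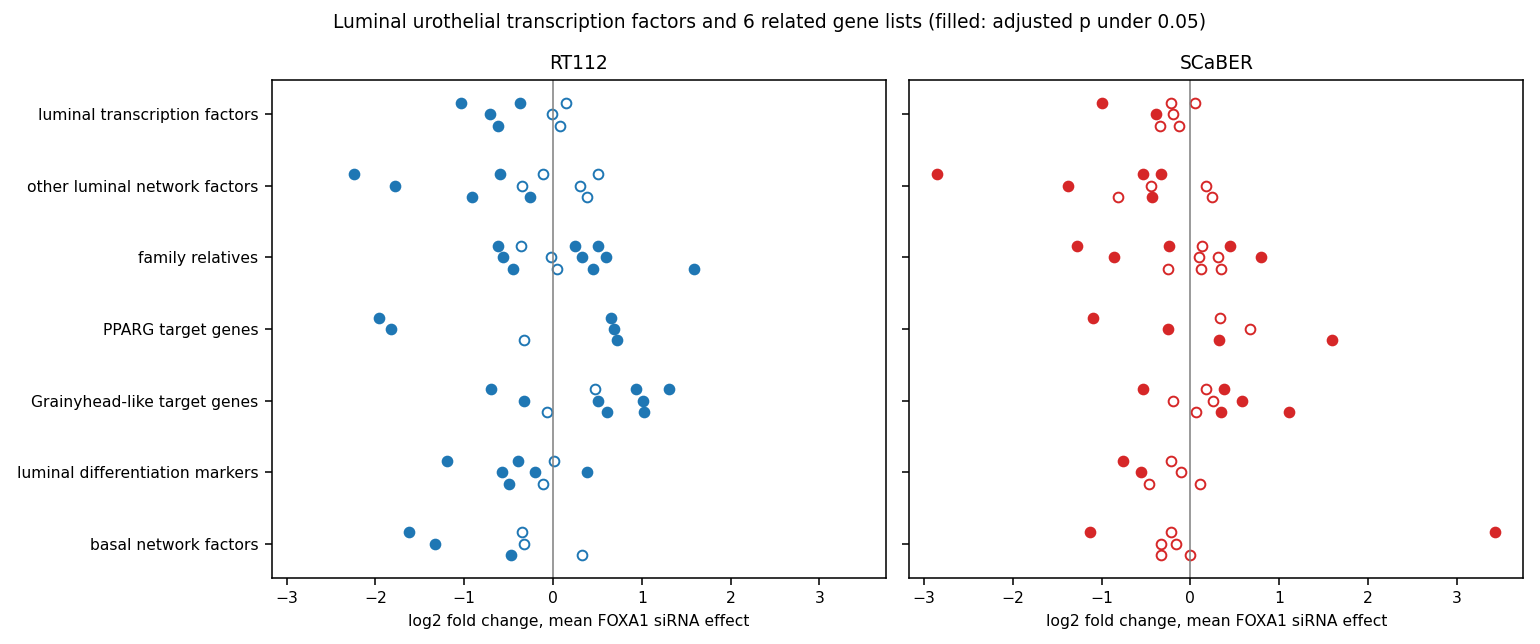
Log2 fold change in the mean FOXA1 siRNA effect (x axis, the same in both panels) of each tested gene of the 8 luminal transcription factors and of 6 related lists (y axis, points spread for visibility), in RT112 (blue) and SCaBER (red), filled where the adjusted p was under 0.05. No filled point of the luminal transcription factors or of the other luminal network factors lay right of 0 in either line, while the Grainyhead-like target genes had 6 filled points on the right and 2 on the left in RT112.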

How the data were processed

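The data are 24 libraries of 3′ RNA-seq, 2 for each of 6 siRNA treatments in RT112 and SCaBER. The deposited tables hold raw counts and TPM values per gene, which the authors made with raw-qc 2.1.0, TrimGalore 0.6.2 (minimum quality 20, minimum length 10), STAR 2.6.1a on hg38 and GENCODE release 29 per the files and the submitters' processing notes. The study's methods name another build, and the build in the files was followed. TPM divides by gene length although 3′ reads do not scale with length, so levels of different genes were not compared. Files that hold only the authors' own comparisons were not used.

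Groups were taken from the labels. Counts were filtered with filterByExpr (minimum count 10, minimum total 15), scaled with TMM and fitted with edgeR 4.0.16 (quasi-likelihood test, R 4.3.3), in a fit per line and a fit of all 24 libraries for comparisons between lines. P-values were adjusted by Benjamini-Hochberg over all genes tested (13264 in RT112, 13129 in SCaBER, 14823 in both) and called under 0.05. GRHL3 did not pass the filter. No count was found for 34121 of the 58721 genes. The scripts were tested on simulated data. Genes varied between replicates with a coefficient of 25.8% (RT112), 21.6% (SCaBER) and 24.5% (joint fit). Intervals are at 95%, and floors of 3 counts cover counting error only. No pair of libraries was a copy (276 pairs, chi-square per gene of at least 6.24).

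In the labels a replicate number stands for an experiment batch, which pairs libraries with the same number across treatments. The deviations of same-numbered libraries had a mean correlation of 0.0304 over 15 pairs in RT112 and 0.0223 in SCaBER, with 0 pairs over 0.1. The fit without the block was kept as the main one.

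The alternatives were size factors of the RLE kind, scaling to library size, no filter, the replicate block, DESeq2 1.42.0, limma 3.58.1 on log2(TPM + 1), only the groups compared, and each library left out. Genes named beyond the members were the 2 most like each member by r and, in each list, the 2 with the largest change in each direction among those called, and further called genes of the lists were named after their values were seen. The members and lists were chosen with earlier results of these data known. An item of the gene lists is not reported here. Figures were drawn with matplotlib 3.10.9.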

Additional observations from a re-analysis of the deposited data

Results flagged for a closer look

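GATA3 was the only member whose response to FOXA1 siRNA differed between the lines by a test of the difference itself. The mean log2 fold change was lower in RT112 than in SCaBER by a difference of −0.68 (SE 0.16, edgeR adjusted p 0.00412). GATA3 was lower with FOXA1 siRNA in 6 of 6 RT112 pairs and 3 of 6 SCaBER pairs. SCaBER held 6.8 to 12.8 CPM of GATA3 without FOXA1 siRNA, so its own effect was known less closely (0.05, interval −0.45 to 0.56) than that of RT112 (−0.63, interval −0.79 to −0.46). Leaving out any single library gave differences from −0.78 to −0.59, all called. The SCaBER mean joins changes of −0.25 against siControl, 0.49 on siZBED2-1 and −0.08 on siZBED2-2, and the difference was not tested on each background.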

How the results depend on the processing

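No value of a member changed sign with a call. For members, 1644 values with a library left out stayed on their side of the threshold, 13 gained a call and 23 lost one, and under other settings 806 stayed, 13 gained and 7 lost, and the cause was not tested. KLF5 with FOXA1 siRNA alone kept its call under all of these in both lines. Depth limits GRHL3 and, in SCaBER, FOXA1.

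With no filter, genes called rose from 22 to 58 for siZBED2-2, from 260 to 430 for the double knock-downs against siFOXA1 (members from 1 to 2, GATA3 gained) and from 81 to 224 for the interaction, all in RT112. DESeq2 gave 70, 422 (members 2) and 238 there (PPARG on siZBED2-1 also passed, −0.59, adjusted p 0.0438), in SCaBER 464 for the interaction (300 in edgeR) and 1 member for siZBED2-1, and 1835 genes for the line difference (1202). Scaling to library size gave 4 members for the SCaBER mean effect (2 with TMM), adding GRHL2 (−0.38, adjusted p 0.0319) and TFAP2A (−0.25, adjusted p 0.0264), while PPARG on siZBED2-1 in RT112 passed (−0.68, adjusted p 0.0371), and only the groups compared gave 46 genes for siZBED2-2 in SCaBER (82).

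With the replicate number as a block, genes called were 44 for siZBED2-2, 444 (members 2) for the double knock-downs against siFOXA1 and 212 for the interaction in RT112, and in SCaBER 641 on siZBED2-2 (398 without), 125 for siZBED2-2 and 508 for the interaction, with 4 members for the mean effect and 1 for siZBED2-1. PPARG on siZBED2-1 in RT112 passed (−0.59, adjusted p 0.0375). The block changed no other member's call.

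With limma on TPM values, RT112 gave 408 genes (1366 in edgeR) and 1 member on siZBED2-1, 573 (1165) on siZBED2-2, 345 (1167) for siZBED2-1, 3 for siZBED2-2, 3 and 0 members for the double knock-downs against siFOXA1, and 4 for the interaction. SCaBER gave 237 (759) on siZBED2-1, 101 and 0 members on siZBED2-2, 236 (610) for siZBED2-1, 3 for siZBED2-2, 214 (504) and 0 members for the double knock-downs against siFOXA1, and 31 for the interaction.

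Leaving out each library in turn, RT112 gave 1869 to 3213 genes and 3 to 3 members for siFOXA1, 672 to 1583 and 1 to 3 on siZBED2-1, 588 to 1423 and 1 to 1 on siZBED2-2, 3878 to 4466 and 3 to 4 for the mean effect, 589 to 1376 for siZBED2-1, 14 to 42 for siZBED2-2, 30 to 378 and 0 to 2 for the double knock-downs against siFOXA1, and 13 to 330 for the interaction. SCaBER gave 1671 to 2413 and 1 to 2 for siFOXA1, 296 to 929 and 0 to 1 on siZBED2-1, 209 to 550 and 1 to 1 on siZBED2-2, 2664 to 3088 and 1 to 4 for the mean effect, 302 to 725 for siZBED2-1, 34 to 113 for siZBED2-2, 211 to 583 and 0 to 2 for the double knock-downs against siFOXA1, and 205 to 430 and 0 to 1 for the interaction. Between the lines the ranges were 3731 to 5018 and 5 to 6 under siControl, and 1021 to 1391 and 1 to 2 for the difference of effects. The lowest count for the double knock-downs in RT112 came without siFOXA1 replicate 2.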
